A study of Rattus norvegicus with 15 samples.

Results

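The growth hormone and IGF axis was followed here through 10 genes in rat liver: Ghr, Igf1, Igfals, Igf2r, Igfbp1, Igfbp2, Igfbp3, Igfbp4, Igfbp6 and Socs2. Every non-control array probe named for one of them was taken, which gave 17 of the 41012 probes on the array; 6 genes had 1 probe and 4 had several. The genes were selected with earlier results of the same fipronil and vehicle comparison known, so their differences and adjusted p-values are descriptions. Female Wistar Crl:WI rats aged 2 to 3 months were given an oral dose of fipronil, 3 mg/kg/day over 14 days, in 1 group (n = 8), and aqueous methylcellulose with Tween 80, the vehicle, over the same time in the other (n = 7). Fipronil is a phenylpyrazole insecticide that blocks GABA-gated chloride channels of insects. Liver RNA of each rat was labelled with Cy3 and hybridised to its own one-colour Agilent array, and the arrays lay on 4 slides that each held both groups. The labels name no genetic modification, and both groups were fed freely.

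Growth hormone from the pituitary binds its receptor, encoded by Ghr, on hepatocytes and activates the kinase JAK2 and the transcription factor STAT5. STAT5 raises transcription of Igf1, of Igfals and of inhibitors of the receptor such as Socs2 and Cish. Circulating IGF1 is carried mostly in a ternary complex with IGFBP3 and the acid-labile subunit, the product of Igfals. Smaller pools are bound by the other IGF binding proteins, which differ in their cell source and in how insulin and fasting control them.

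Signal is the log2 processed intensity minus the log2 of its array's 75th percentile, and a difference is the fipronil mean minus the vehicle mean on that scale. All 17 probes were well above background on all 15 arrays and entered the limma fit over 23259 probes. A probe was called at a Benjamini-Hochberg adjusted p under 0.05. Igfbp6 was lower with fipronil and was the only one of the 17 to be called, while 0.821% of all probes were called in either direction and 0.288% were called lower. At an unadjusted p under 0.05 the counts were 8 of 17 member probes and 17.2% of all probes. The 8 include an Igf1 probe saturated on every array, and with array brightness in the model the member count was 2, Igfbp6 and Socs2. These shares are read as background only, since the genes were selected on this contrast. The median difference was -0.18 over the 17 probes and -0.02 over all probes. Of the 17, 13 had a negative and 4 a positive difference, against 54.3% of all probes with a negative one. With array brightness in the model 10 were negative and 7 positive, with a median of -0.07.

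Arrays of fipronil rats were brighter, and this bears on several member probes. The 75th percentile of processed intensity was 185 to 270 (median 204) in fipronil rats and 115 to 214 (median 162) in vehicle rats. On the log2 scale the group means differed by 0.31. The 83 probes that were saturated on all 15 arrays, which stay at the scanner's ceiling, had a median difference of -0.31 after division by the percentile. Hepatocyte markers identified the tissue: all 10 marker genes were tested, and 11 of their 19 probes were saturated on every array, among them Ahsg, Ttr, Fgb and Arg1. Values with array brightness in the model are therefore given beside several of the differences.

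**Figure D1:**
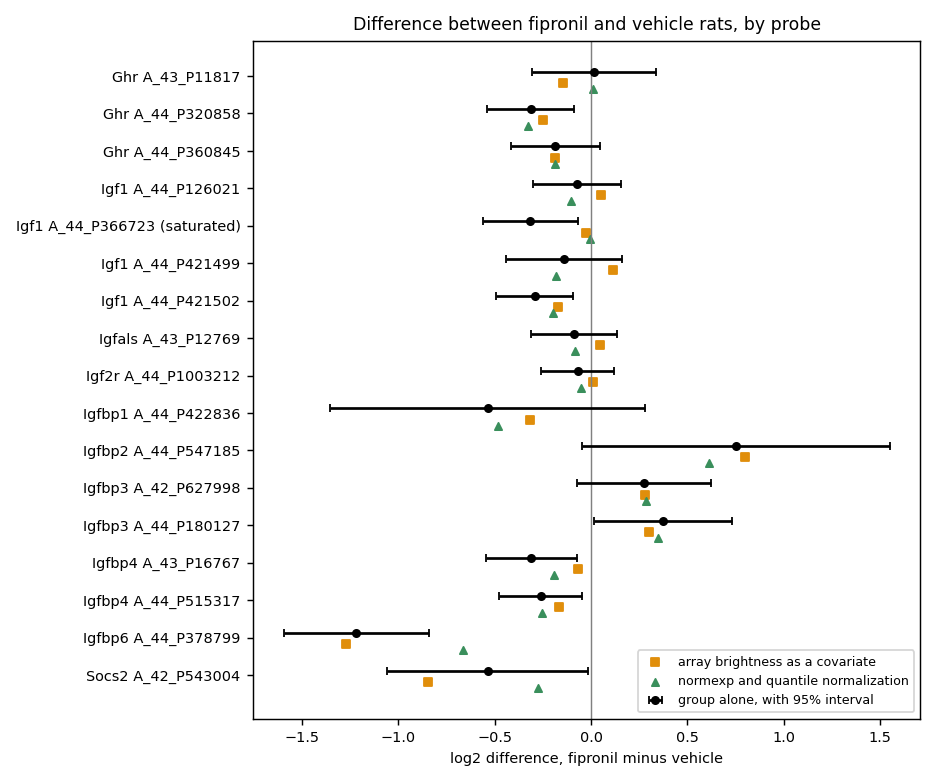
Log2 difference, fipronil minus vehicle, of each of the 17 probes (x axis); black points with bars are the limma estimate with its 95% interval, orange squares the estimate with array brightness in the model, and green triangles the estimate after normexp background correction and quantile normalization. Igfbp6, at -1.22, lies farthest from 0; the Igf1 probe saturated on all arrays moves to near 0 under both alternatives.

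The regions before the transcription start were read for motifs that this axis is known for. RefSeq (GRCr8) promoters were found for 9 of the 10 genes, the other being Socs2, and the 250 bases before the start were searched on both strands. The letters TTCNNNGAA, the consensus core bound by STAT5, occurred in none of the 9, and in 7.67% of 33469 promoters of that length. CAAAACA, the core of the insulin response element bound by FOXO factors, occurred in Igf1 and Igfbp1 and in 5.46% of all. TATAAA occurred in Igfbp4 and in 12.9% of all. A match is a description of letters, and its absence from this window says nothing of the factor. The sequences given are Igfbp6, the 1 gene that was called, at chr7:135154669-135154918 (plus strand), and the pair with CAAAACA in capitals, Igfbp1 at chr14:86261027-86261276 (plus strand) and Igf1 at chr7:24172282-24172531 (plus strand).
Igfbp6: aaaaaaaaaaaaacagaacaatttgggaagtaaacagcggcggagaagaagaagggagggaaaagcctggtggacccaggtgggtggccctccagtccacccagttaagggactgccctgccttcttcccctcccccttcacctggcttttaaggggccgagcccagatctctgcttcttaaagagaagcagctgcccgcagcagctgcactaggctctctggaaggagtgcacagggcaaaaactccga
Igfbp1: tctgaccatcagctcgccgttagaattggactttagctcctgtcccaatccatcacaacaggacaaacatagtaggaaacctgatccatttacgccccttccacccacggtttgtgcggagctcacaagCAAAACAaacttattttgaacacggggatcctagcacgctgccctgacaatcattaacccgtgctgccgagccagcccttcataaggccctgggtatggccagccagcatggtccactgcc
Igf1: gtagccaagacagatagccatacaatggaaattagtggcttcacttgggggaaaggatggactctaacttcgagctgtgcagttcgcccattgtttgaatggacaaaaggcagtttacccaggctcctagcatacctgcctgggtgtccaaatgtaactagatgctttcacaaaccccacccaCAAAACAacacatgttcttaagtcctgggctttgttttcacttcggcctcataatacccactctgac

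Ghr, the receptor through which the liver senses growth hormone, was read by 3 probes on the minus strand of chromosome 2 (rn4, per the file headers). Probe A_44_P320858 had signals of 5.87 to 6.63 (median 6.30) in fipronil rats and 6.34 to 6.73 (median 6.60) in vehicle rats. In 5 of 8 fipronil rats it lay below the lowest vehicle rat, although the groups overlapped. The difference was -0.31 (SE 0.11, limma adjusted p = 0.164), with the same sign within all 4 slides (-0.36, -0.25, -0.23 and -0.47). With array brightness in the model it was -0.25 (adjusted p = 0.635). Probe A_44_P360845 had signals of 0.70 to 1.29 (median 0.89) in fipronil rats and 0.71 to 1.31 (median 1.14) in vehicle rats. Its groups overlapped almost wholly, and the difference was -0.18 (SE 0.11, limma adjusted p = 0.404). The third Ghr probe, A_43_P11817, had signals of 1.65 to 2.78 (median 1.94) in fipronil rats and 1.75 to 2.22 (median 1.99) in vehicle rats. Fipronil rats lay on both sides of the vehicle range, 3 below it and 2 above it. Its difference was 0.02 (SE 0.15, limma adjusted p = 0.974), with a 95% interval of -0.31 to 0.34, and its sign turned under other settings. The 3 probes were not tested against each other, and which transcript forms each detects is not given in the sources used here.

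**Figure D2:**
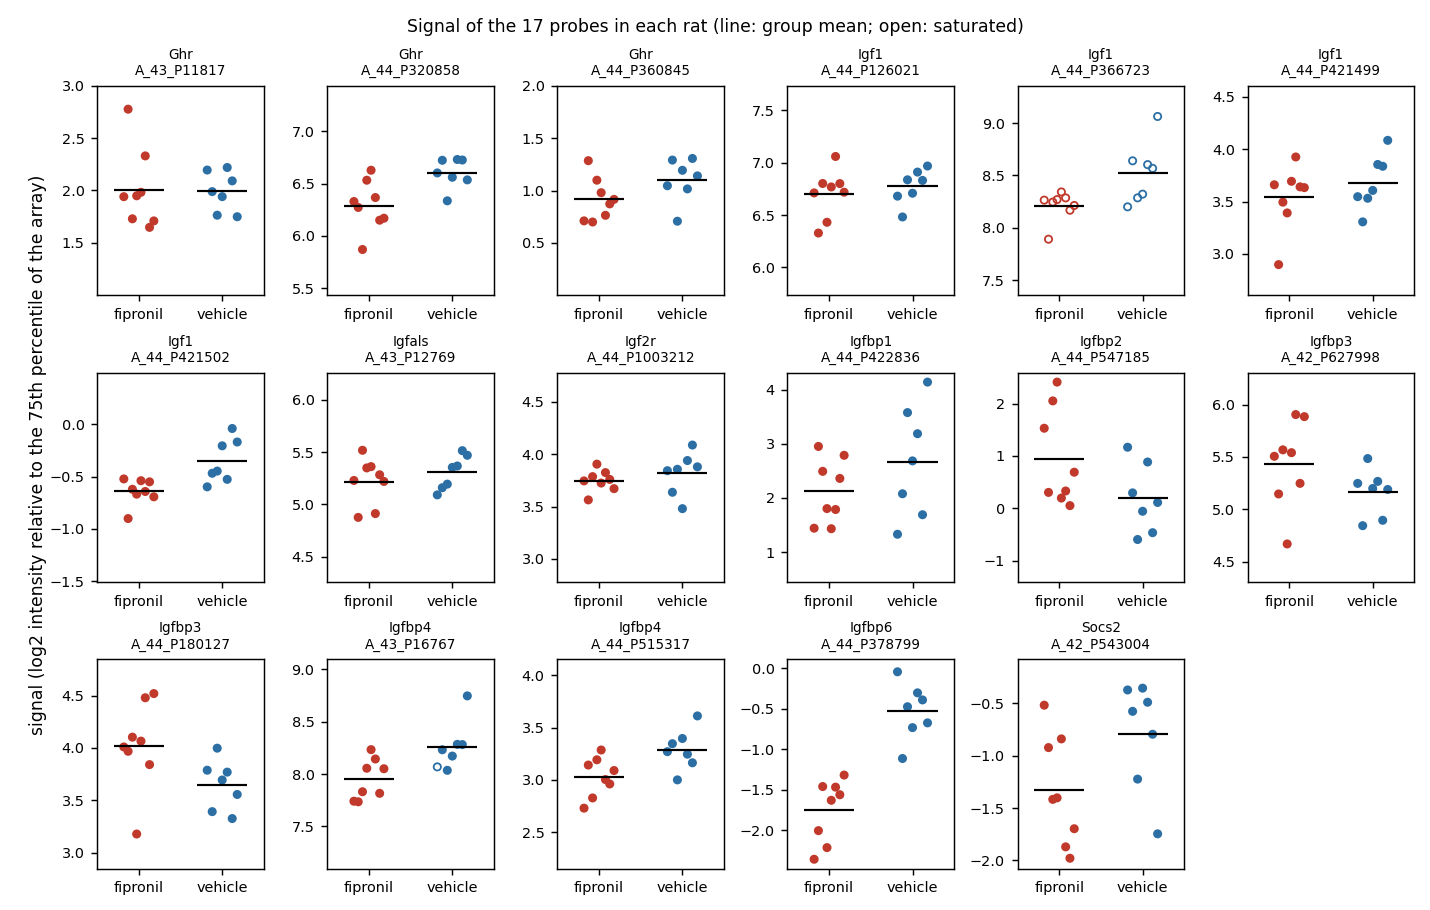
Signal of each probe in each rat (y axis, log2 intensity minus that of the array's 75th percentile), with fipronil rats in red at the left and vehicle rats in blue at the right; lines are group means and open symbols are saturated spots. Only for Igfbp6 do the groups not overlap.

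Socs2, which encodes an inhibitor of growth hormone receptor signalling and is itself a STAT5 target, was read by 1 probe. Its signals were -1.98 to -0.52 (median -1.41) in fipronil rats and -1.75 to -0.35 (median -0.58) in vehicle rats. Of the 8 fipronil rats, 7 lay below the vehicle mean, but 1 vehicle rat, at the low end of the vehicle range, lay among the lowest fipronil rats. The difference was -0.54 (SE 0.25, limma adjusted p = 0.279), with a 95% interval of -1.06 to -0.01. Within slides it was -0.25, -0.62, -0.87 and -0.57, so the sign was the same on all 4. It was -0.84 with array brightness in the model and -0.27 after normexp and quantile normalization, and it was called under neither.

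Igf1, the secreted growth factor, was read by 4 probes on chromosome 7. On A_44_P366723 the spot was saturated in all 8 fipronil rats and all 7 vehicle rats, so no fold can be given for it. A_44_P126021 had signals of 6.33 to 7.06 (median 6.74) in fipronil rats and 6.48 to 6.97 (median 6.83) in vehicle rats. The ranges lay almost on each other, and the difference was -0.07 (SE 0.11, limma adjusted p = 0.786), with a 95% interval of -0.30 to 0.16. A_44_P421499 had signals of 2.90 to 3.93 (median 3.64) in fipronil rats and 3.31 to 4.08 (median 3.61) in vehicle rats. Only 1 fipronil rat lay outside the vehicle range, on its low side, and the difference was -0.14 (SE 0.14, limma adjusted p = 0.665). The mapped spans of these 2 probes, 5094 and 3239 bases long, overlap, so they may share sequence. With array brightness in the model both differences were positive, at 0.05 and 0.12.

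The remaining Igf1 probe, A_44_P421502, was printed in 10 spots. Its signals were -0.90 to -0.52 (median -0.63) in fipronil rats and -0.60 to -0.04 (median -0.45) in vehicle rats. All 8 fipronil rats lay below the vehicle mean and 5 lay below the lowest vehicle rat. The difference was -0.29 (SE 0.09, limma adjusted p = 0.147). Within slides it ran from -0.06 on slide 3 to -0.52 on slide 4, and with array brightness in the model it was -0.17 (adjusted p = 0.701). Its repeat spots on 1 array had an SD of 0.05 to 0.15 log2 units (median 0.09), which measures the array and not the spread between rats.

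Igfals, which encodes the acid-labile subunit, and Igf2r, the receptor that clears IGF2 and carries mannose 6-phosphate tagged enzymes to lysosomes, had differences whose intervals include 0. Igfals had signals of 4.88 to 5.52 (median 5.26) in fipronil rats and 5.09 to 5.51 (median 5.35) in vehicle rats. The difference was -0.09 (SE 0.11, limma adjusted p = 0.717), with a 95% interval of -0.31 to 0.13. Igf2r had signals of 3.56 to 3.91 (median 3.75) in fipronil rats and 3.48 to 4.09 (median 3.86) in vehicle rats. All fipronil rats lay inside the vehicle range, and the difference was -0.07 (SE 0.09, limma adjusted p = 0.741), with a 95% interval of -0.26 to 0.12. Both turned positive with array brightness in the model, at 0.05 for Igfals and 0.01 for Igf2r.

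Among the binding proteins, Igfbp6 had the difference that was called. IGFBP6 binds IGF2 with higher affinity than IGF1. Its signals were -2.36 to -1.32 (median -1.60) in fipronil rats and -1.11 to -0.05 (median -0.48) in vehicle rats. Every fipronil rat lay below every vehicle rat in this scaled signal, a separation shown by 0.598% of all probes. Before scaling, the processed intensity was low, at 40.4 to 82.2 in fipronil rats and 72.2 to 208 in vehicle rats. Those unscaled ranges overlap. The mean signal was -1.75 ± 0.39 (SD, n = 8) in fipronil rats and -0.53 ± 0.34 (SD, n = 7) in vehicle rats. The difference of -1.22 (SE 0.18, limma adjusted p = 0.00289) is a level 2.32-fold lower with fipronil, with a 95% interval of 1.79 to 3.02. By p it ranked 31st of all probes and 3rd among those lower with fipronil. Within the 4 slides the difference was -1.60, -1.23, -1.24 and -0.91. It was -1.27 with array brightness in the model (adjusted p = 0.0304) and -0.66 after normexp, which adds an offset of 50, and quantile normalization (adjusted p = 0.0047). Over 33 alternatives the adjusted p lay between 0.0015 and 0.0372.

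Lists of mesothelial and portal fibroblast markers were set beside Igfbp6. In whole liver, fewer cells of a type and less RNA per cell cannot be told apart. All 6 tested mesothelial probes, for 5 genes, had negative differences, with a median of -0.34 and a range of -0.69 to -0.18, and 0 were called; Krt8, with the smallest p, had -0.24 (limma adjusted p = 0.260). The summed mesothelial level was 15.5 to 22.6 (median 17.8) in fipronil rats and 16.05 to 30.5 (median 21.8) in vehicle rats, as linear multiples of the 75th percentile over 5 genes. Krt8 made up most of this sum, with a mean signal of 3.94 in fipronil rats and 4.18 in vehicle rats. The sum therefore follows Krt8 more than the list, and it is not a measure of mesothelial cells alone. Msln, the next brightest of these genes, had means of 0.27 and 0.52. Probes of the mesothelial markers Wt1 and Bnc1 were not well above background on enough arrays to be tested. Of 13 portal fibroblast probes, 10 were negative and 0 were called, with a median of -0.13. Gas6, a ligand of TAM receptors, had -0.50 (limma adjusted p = 0.0604). Its limma adjusted p was 0.0353 with slide as a block, 0.0996 after normexp and quantile normalization, and 0.358 with array brightness in the model. The summed portal fibroblast level was 68.2 to 104 (median 80.4) in fipronil rats and 92.7 to 115 (median 100.02) in vehicle rats over 9 genes, with Lum, Pi16 and Thy1 not tested. Gas6 made up most of this sum, with mean signals of 5.50 in fipronil rats and 6.01 in vehicle rats on A_44_P179814. The 3 positive probes were those of Dcn (0.37), Col3a1 (0.04) and Fbln2 (0.04). The part of these cells in the Igfbp6 difference was not tested.

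**Figure D3:**
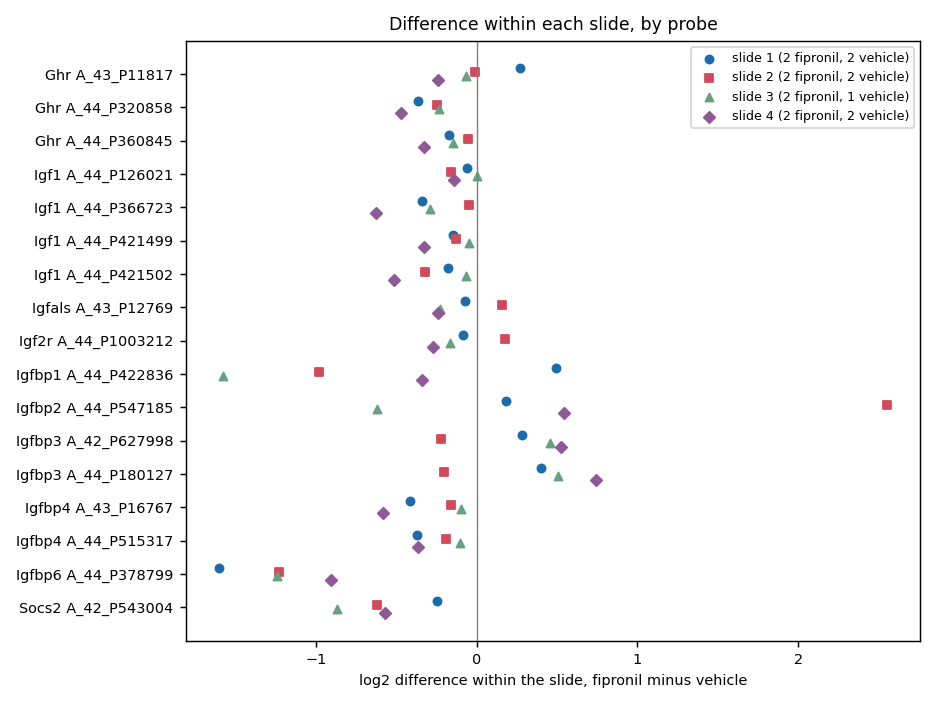
Log2 difference, fipronil minus vehicle, within each of the 4 slides (x axis) for each of the 17 probes; each symbol is 1 slide, with 2 fipronil rats and 1 or 2 vehicle rats. Of the 17 probes, 9 are negative on all 4 slides, among them Igfbp6 and Socs2, whereas Igfbp1 and Igfbp2 change sign between slides. The 9 include the Igf1 probe saturated on all arrays, and the share of all probes negative on all 4 slides was not counted.

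Igfbp1, which insulin represses and fasting raises in liver, was the member with the widest spread between rats. Its signals were 1.43 to 2.95 (median 2.08) in fipronil rats and 1.33 to 4.14 (median 2.68) in vehicle rats. The vehicle rats alone spanned a 7.00-fold range and the fipronil rats a 2.86-fold range inside it. The difference was -0.54 (SE 0.39, limma adjusted p = 0.510), with a 95% interval of -1.35 to 0.28. It was -0.29 without vehicle rat 7, the highest of all, and -0.94 without slide 1. On slides 1 to 4 it was 0.49, -0.98, -1.58 and -0.34. Its residual SD of 0.82 was above that of 97.9% of all tested probes.

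Igfbp2, another binding protein made by the liver, spread almost as widely, with a residual SD of 0.81. Its signals were 0.05 to 2.41 (median 0.51) in fipronil rats and -0.59 to 1.17 (median 0.11) in vehicle rats. Only 3 of 8 fipronil rats lay above the highest vehicle rat, and both fipronil rats of slide 2 were among them. The difference was 0.75 (SE 0.38, limma adjusted p = 0.321), with a 95% interval of -0.05 to 1.55. It was 2.55 on slide 2, against 0.19, -0.62 and 0.55 on slides 1, 3 and 4, and 0.12 over the other rats without slide 2.

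Igfbp3, which encodes the main carrier of circulating IGF1 and is made in liver mostly by non-parenchymal cells, was read by a pair of probes. A_42_P627998 had signals of 4.67 to 5.90 (median 5.52) in fipronil rats and 4.84 to 5.48 (median 5.20) in vehicle rats, a difference of 0.27 (SE 0.16, limma adjusted p = 0.416). A_44_P180127, printed in 10 spots, had signals of 3.18 to 4.52 (median 4.04) in fipronil rats and 3.33 to 4.00 (median 3.69) in vehicle rats, a difference of 0.37 (SE 0.17, limma adjusted p = 0.269). On both probes 5 of 8 fipronil rats lay above the highest vehicle rat and 1 lay below the lowest. Both were positive on slides 1, 3 and 4 and negative on slide 2, at -0.22 and -0.21. The probes of Igfbp1 and Igfbp3 lie 5699 bases apart on chromosome 14 (rn4), on opposite strands.

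Sinusoidal endothelial markers were set beside Igfbp3. Of their 9 tested probes 8 had positive differences, with a median of 0.34 and a range of -0.08 to 0.70, and 0 were called; Stab2, a scavenger receptor of these cells, had 0.42 (limma adjusted p = 0.105). Their summed level over 7 genes was 91.7 to 175 (median 107) in fipronil rats and 73.2 to 103 (median 90.3) in vehicle rats, with Pecam1 and Tek not tested. Kupffer cell and macrophage markers had 10 of 13 positive probes, a median of 0.10 and 0 calls; the probe with the smallest p, 1 of a pair for Csf1r, had -0.22 (limma adjusted p = 0.634) and was well above background on 9 arrays. The other Csf1r probe, well above background on all 15, had 0.19 (limma adjusted p = 0.758). Their summed level was 114 to 235 (median 185) in fipronil rats and 80.2 to 276 (median 181) in vehicle rats. The stellate list had 6 positive and 4 negative probes, a median of 0.08 and 1 call of 10. The call was Rgs5, a pericyte regulator of G protein signalling, at 1.01 (limma adjusted p = 0.00882). With array brightness in the model its limma adjusted p was 0.113. Among the negative probes, Ngfr had -0.59 (limma adjusted p = 0.165). Of 6 cholangiocyte probes 3 were positive and 3 negative, with a median of -0.035, and 0 were called. Epcam, with the smallest p, had 0.51 (limma adjusted p = 0.126). The part of any of these cells in the Igfbp3 values was not tested.

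Igfbp4, an IGF binding protein that is cleaved by the protease PAPPA, was read by a pair of probes. A_43_P16767 had signals of 7.74 to 8.23 (median 7.94) in fipronil rats and 8.04 to 8.75 (median 8.23) in vehicle rats, and it was saturated on 1 vehicle array. A_44_P515317, saturated on none, had signals of 2.73 to 3.29 (median 3.05) in fipronil rats and 3.00 to 3.61 (median 3.27) in vehicle rats. On both, all 8 fipronil rats lay below the vehicle mean, although the groups overlapped. The differences were -0.31 (SE 0.11, limma adjusted p = 0.188) and -0.26 (SE 0.10, limma adjusted p = 0.215). With array brightness in the model they were -0.07 and -0.17.

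Other genes of the pathway were taken from fixed lists, and none of the first 3 lists held a call. Of 32 probes for 22 genes of growth hormone receptor signalling, 0 were called (2 at an unadjusted p under 0.05), with a median of -0.05. Cish, a STAT5 target like Socs2 and a feedback inhibitor, had the smallest p there and among the growth hormone and STAT5 responsive genes. Of the 17 probes for the responsive genes 0 were called (4 unadjusted, 1 of the 17 saturated on all arrays). Their median was -0.18, and 0.0014 with array brightness in the model. Cish signals were -1.72 to -0.37 (median -1.17) in fipronil rats and -1.02 to -0.12 (median -0.64) in vehicle rats. The Cish difference was -0.55 (SE 0.20, limma adjusted p = 0.184, and 0.565 with array brightness in the model). The groups overlapped. Of 12 probes for other IGF ligands, receptors and binding or cleaving proteins, 0 were called (4 unadjusted), and Htra1, a secreted protease that cleaves IGF binding proteins, had -0.32 (SE 0.09, limma adjusted p = 0.112).

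Sex-dependent liver genes, which read the pulse pattern of growth hormone, and insulin responsive genes were counted the same way. Of 15 probes for male-predominant genes 2 were called, both higher (5 unadjusted). The P450 Cyp3a18 had a difference of 1.97 (limma adjusted p = 8.48e-07). The organic anion transporter Slco1a1 had 0.96 (limma adjusted p = 4.94e-06). The list median was 0.17, with 12 probes positive and 3 negative. Cyp2c11 and Cyp2c13, both dim, had 0.17 (limma adjusted p = 0.710) and 0.02 (limma adjusted p = 0.959). Cyp4a2 had -0.48 (limma adjusted p = 0.135). Cyp3a2 had 2.87, the largest of the list (limma adjusted p = 0.0541), and was well above background on 8 arrays. Its limma adjusted p was 0.0380 with slide as a block and 0.378 with array brightness in the model. Akr1c12 had 2.01 (limma adjusted p = 0.0659). Whether growth hormone had a part in these differences was not tested. Of 13 female-predominant probes 0 were called (6 unadjusted, 3 of the 13 saturated on all arrays). The Cyp2c12 probe, 1 of the 6, was saturated on 14 arrays, so no fold can be given for it. Cyp2a1, a steroid hydroxylase, had 0.54 (limma adjusted p = 0.0763). Of 23 probes for insulin and fasting responsive genes 0 were called (1 unadjusted), with a median of -0.0084.

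**Figure D4:**
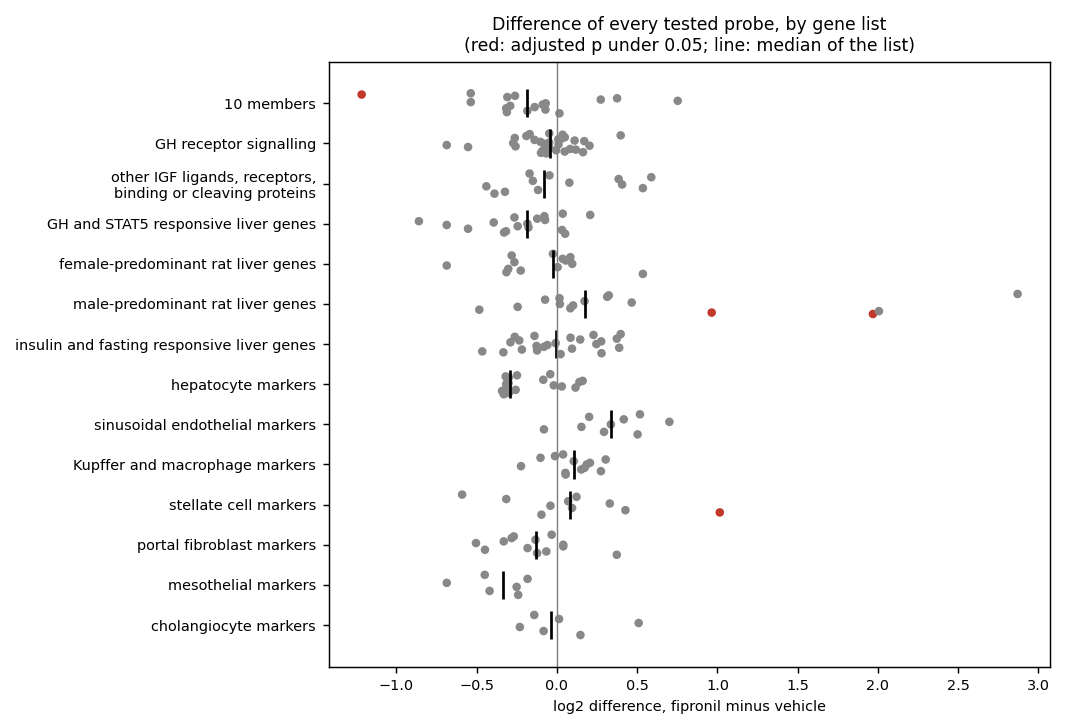
Log2 difference, fipronil minus vehicle (x axis), of every tested probe of the 10 members, the 6 pathway lists and the 7 cell type marker lists; red points have an adjusted p under 0.05 and black lines are list medians. The calls are Igfbp6, Cyp3a18, Slco1a1 and Rgs5.

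How the members varied between rats of the same group was compared with 1 probe per gene, as deviations from the group means over 15 rats. Of 45 pairs, 0 passed a Benjamini-Hochberg adjusted p of 0.05 in a two-sided permutation test with 100000 within-group resamples, and 5 had an unadjusted p under 0.05. Pearson's r ran from -0.55 to 0.68. The highest was between Igf1 and Igfbp3 (r = 0.68, permutation p = 0.0112, adjusted p = 0.403; Spearman's rho = 0.59, permutation p = 0.0286, adjusted p = 0.429). Without the 2 rats farthest from the median of Igf1 it was 0.64. The lowest was between Igfbp1 and Socs2 (r = -0.55, permutation p = 0.0367, adjusted p = 0.403; Spearman's rho = -0.54, permutation p = 0.0402, adjusted p = 0.452), and without the 2 farthest rats it was -0.33. Igfbp6 had r = 0.59 with Igfbp3 and 0.55 with Igf1, both with an adjusted p of 0.403 in the permutation test.

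**Figure D5:**
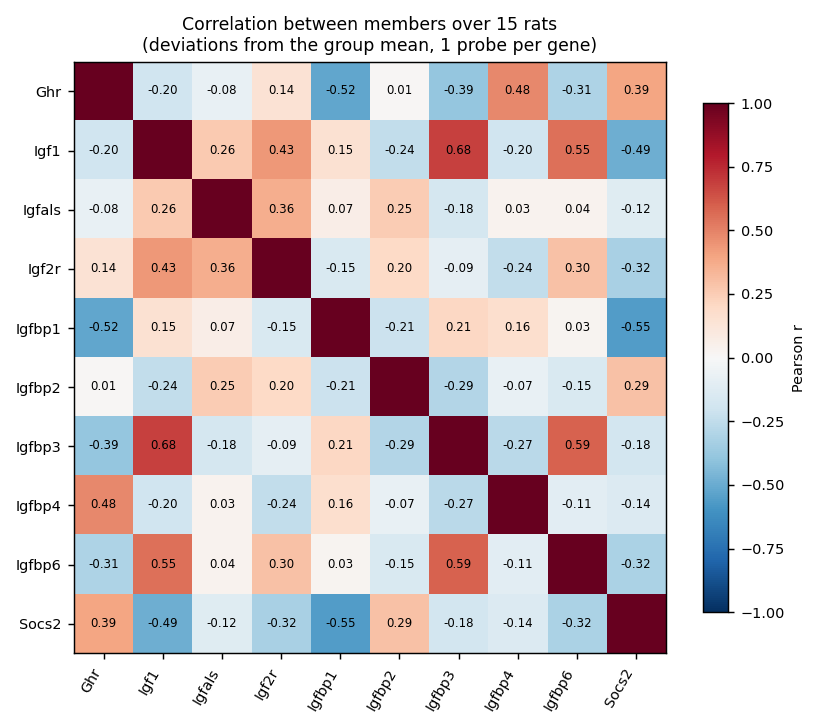
Pearson's r between each pair of the 10 members over 15 rats, from deviations from the group mean with 1 probe per gene; red is positive and blue negative. Values run from -0.55 to 0.68 and none of the 45 pairs passed the adjusted threshold.

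Probes of 1 gene were compared in the same way over 11 pairs, of which 5 passed by Pearson's r and 2 by Spearman's rho. The Igfbp3 probes had r = 0.97 and the overlapping Igf1 probes A_44_P126021 and A_44_P421499 had r = 0.90, each with an unadjusted permutation p of 1e-05, the smallest these permutations can give, and an adjusted p of 5.5e-05. Spearman's rho was 0.92 for Igfbp3 and 0.84 for Igf1, and r without the 2 farthest rats was 0.92 and 0.79. The Igfbp4 probes had r = 0.71, and 0.44 without the 2 farthest rats. Igf1 probe A_44_P421502 had r = 0.60 with A_44_P421499, which passed by Pearson's r alone, and 0.44 with A_44_P126021, which did not pass. The 3 pairs with the saturated Igf1 probe, at r of 0.43 to 0.65, are not interpretable. Its pair with A_44_P421499, at r = 0.65, is among the 5 that passed by Pearson's r. The 3 Ghr pairs had r of 0.39 to 0.52 and did not pass.

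The genes whose pattern over the 15 rats was most like each member's were ranked by Pearson's r of the same deviations among 19336 probes, as a description with no test. Arrays share their brightness, so such r values also hold what the arrays have in common. For Ghr they were Cyp4a3 (0.86), Tm7sf2 (0.84) and Srf (0.84); Cyp4a3, a fatty acid hydroxylase, was itself lower with fipronil, with a difference of -0.72 (limma adjusted p = 0.0448). For Igf1 they were Clk1 (0.95), Tmem60 (0.94) and Nek1 (0.90), and for Igfals Snrnp70 (0.92), Dhrs3 (0.90) and Pes1 (0.89). Igf2r was nearest to Cdk1 (0.84), Pard6a (0.83) and Tent4b (0.81), and Igfbp1 to Pnrc1 (0.87), Acot5 (0.81) and Akap11 (0.80). Igfbp2 was nearest to Cenpm (0.84), Adrb1 (0.83) and Sh3bp5 (0.79), and Igfbp3 to Clec10a (0.88), Vcam1 (0.87) and Heph (0.86). For Igfbp4, Odc1 (0.88) and Cited4 (0.84) were among them, and Cited4 was lower with fipronil, with a difference of -1.19 (limma adjusted p = 0.0109). Igfbp6 was nearest to Klf9 (0.80), Smoc2 (0.79) and Ammecr1l (0.78), and Socs2 to Nedd9 (0.90), Nus1 (0.89) and Steap4 (0.89).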

How the data were processed

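Liver RNA of 15 rats was measured on one-colour Agilent arrays, 1 per rat. Agilent Feature Extraction 9.5.3.1 made the deposited intensity of each spot; its processed form is background subtracted and detrended, with no scaling across arrays, per the file headers. Flags of 0 or 1 in the deposited array files mark saturated spots, outlier spots and spots well above background. A deposited value table gives log2 values for 22244 probes; per the submitters' processing notes, Feature Extraction 9.5 and limma were used. Its Spearman correlation with the median intensity of the same array was at least 0.99999, and it served as an alternative. Per the file headers, coordinates of probes refer to rn4, whose genome was not used here.

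Probes were named by accession, symbol or synonym through RefSeq (GRCr8). The members, the gene lists and the tests were chosen with earlier results of these data known. After outlier spots were removed, repeat spots were averaged and the log2 processed intensity was centred on each array's 75th percentile. Each of 23259 probes well above background on at least 7 arrays, and missing on at most 3, was fitted with limma 3.58.1 (R 4.3.3; lmFit and eBayes, two-sided, Benjamini-Hochberg). The steps were tested on simulated data. Intervals are at 95%. The number of arrays limits the precision. Correlations used Python 3.11.15 with 100000 permutations within groups. The correlation probe was the brightest saturated on no array.

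Named genes were all member probes; in each pathway list, up to 5 called genes, or else the gene with the smallest p; in each marker list, the marker with the smallest p; and for each member, the 3 genes of highest r. The result of 1 gene in each of 2 of these groups is not reported here. Hepatocyte probes saturated on all arrays were also named. So were some further genes of the mesothelial, portal fibroblast, stellate, male-predominant and female-predominant lists, added for their direction, size or brightness. Same-numbered rats of the groups had correlations of deviations from -0.04 to 0.37, so the numbers were not taken as pairs. Alternatives covered background correction, scaling, filters, spots, covariates, weights and arrays left out.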

Additional observations from a re-analysis of the deposited data

Results flagged for a closer look

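Of the 34 groups of values (17 probes in fipronil and in vehicle rats), 3 held a rat far from the others by Dixon's test, and chance flags about 1 group in 20. Fipronil rat 2 was lowest of its group on Igf1 probe A_44_P421502, with a signal of -0.90. Its unscaled intensity on that probe was 144, within a range of 124 to 148 in fipronil rats. It was therefore not the lowest before scaling. The same rat was lowest on the saturated Igf1 probe A_44_P366723, with 7.89. Its array was the brightest of all, with a 75th percentile of 270, and its unscaled intensity on that saturated probe, 63987, was the highest of the fipronil rats, so this rank follows from the division by the percentile. Vehicle rat 7, which had the dimmest array of all, was highest of its group on Igfbp4 probe A_43_P16767, with 8.75.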

How the results depend on the processing

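Igfbp6 was the 1 member probe called under each of the 33 alternatives that give a test, with differences of -1.32 to -0.66. No pair of members passed the adjusted threshold under the 5 alternatives for correlations, and calls in the pathway lists numbered 2 or 3. Over all probes 191 were called (124 higher, 67 lower). The count was 90 with no filter on dim probes, 97 with a replicate block (Igfbp6 stayed called), 42 with array brightness as a covariate, 39 without slide 1 and 45 without slide 4. It was 104 (without vehicle rat 2) to 307 (without vehicle rat 3) with 1 rat left out; it was 122, 113 and 106 without fipronil rats 1, 7 and 8, and 116 and 106 without vehicle rats 1 and 7. Centring on the array median gave 184 higher and 53 lower. The cause was not tested. Of 14 rats with a same-numbered rat in the other group, 5 correlated best with it, and same-numbered rats shared a slide for all numbers but 6.

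Probe A_43_P11817 of Ghr, at 0.02, was -0.0083 with slide as a block, -0.14 with array brightness as a covariate, -0.12 with array weights and -0.062 without slide 1. With 1 rat left out it ran from -0.094 (without fipronil rat 2) to 0.067 (without fipronil rat 7), and was also negative without fipronil rat 6 (-0.031) and vehicle rats 3 (-0.023) and 7 (-0.025). With array brightness as a covariate the differences of Igf1 were 0.054 (A_44_P126021) and 0.12 (A_44_P421499), that of Igfals 0.047 and that of Igf2r 0.0077; Igf2r was 0.0072 without slide 4. Saturation limits Igf1 probe A_44_P366723 on all arrays and Igfbp4 probe A_43_P16767 on 1.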
